A study of Mus musculus with 11 samples.

Results

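The ceramide synthase genes *Cers1* to *Cers6*, formerly named *Lass*, were followed across 11 RNA-seq libraries of mouse mammary epithelial cells. The members were chosen by name, as the 6 genes of this family among the 27179 genes counted, and 5 of the 6 passed the filter on low counts (over 0.5 CPM, the count scaled to the library size, in at least 3 libraries). MaSC/basal cells (CD24+CD29hi), luminal progenitor-enriched cells (LP, CD24+CD29loCD61+) and mature luminal-enriched cells (ML, CD24+CD29loCD61-) had been sorted from glands of wild type virgin FVB/N females, given as 8 weeks old in the labels, with 3 libraries per population. The next library came from mammosphere cells, grown in suspension for a week from MaSC/basal cells of the same kind of mouse. The last came from Comma Dβ (CommaD-βGeo), an established mammary line labelled as wild type, of Balb/c background and mid-pregnancy origin. The labels name no treatment for any library. The study used the libraries to judge whether mammospheres suited its hairpin screen in MaSC/basal cells. It also used them to see which candidates of the screen were expressed in these populations, and *Cers4* and *Cers6* were among those candidates. Among hairpins past the study's threshold, those against *Cers4* changed in opposite directions and that against *Cers6* was depleted.

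Ceramide synthases sit in the endoplasmic reticulum and join a fatty acyl-CoA to a sphingoid base, giving dihydroceramide in new synthesis and ceramide when sphingosine is recycled. The members differ mainly in the acyl chain they prefer. CerS2 uses very-long chains and CerS3 very-long and ultra-long chains, the latter being best known for the skin barrier. CerS1 and CerS4 prefer stearoyl and similar chains, and CerS5 and CerS6 prefer palmitoyl chains. Ceramide is the precursor of sphingomyelin and the glycosphingolipids, and it can be broken down to sphingosine and its phosphate.

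Reads could be assigned to single members where their sequences differ, so their loci (RefSeq, GRCm38.p6) and coding sequences were compared first. *Cers2* lies at chr3:95314771-95323599 on the plus strand, *Cers3* at chr7:66733118-66823692 (plus), *Cers4* at chr8:4492818-4529603 (plus), *Cers5* at chr15:99735592-99772515 (minus) and *Cers6* at chr2:68861145-69114284 (plus). Identity of the aligned coding sequences ranged from 58.0% between *Cers4* and *Cers5* to 67.0% between *Cers5* and *Cers6*. The longest run of identical bases shared by the coding sequences of any pair was 18 bases, against a read length of 100 bases. It was found in the pair that prefers palmitoyl chains. It lies in exon 9 of the GENCODE transcript used for each gene and is shown in capitals with 20 bases on either side, to let the differences around it be seen.

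*Cers5*, chr15:99738741-99738798, minus strand: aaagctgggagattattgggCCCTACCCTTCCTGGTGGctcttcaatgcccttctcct
*Cers6*, chr2:69105026-69105083, plus strand: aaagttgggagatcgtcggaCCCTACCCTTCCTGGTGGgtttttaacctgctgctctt

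For *Cers2*, *Cers3*, *Cers5* and *Cers6* no 100-base window of the GENCODE transcript used lay wholly in exons of another annotated gene. For *Cers4* the share was 8.39%, all in *Vmn2r-ps89*, a pseudogene on the opposite strand, and the strand setting of the counting is not given in the sources used here. Over all GENCODE exons, *Cers2* shared 144 bases with *6330562C20Rik* and 75 bases with *Setdb1*, both on the opposite strand. *Cers4* shared 214 bases with *Gm36956* and *Cers1* 68 bases with *Upf1*, also opposite, and *Cers3*, *Cers5* and *Cers6* shared none. The *Cers6* transcript used has 1279 bases, against an exon length of 3930 bases in the authors' tables.

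*Cers1* had 0 reads in each of the 11 libraries, where a count of 3 reads, the limit that a count of 0 allows, equals 0.0399 to 0.160 CPM. The gene lies at chr8:70315775-70331588 on the plus strand, and its annotated exons also hold *Gdf1*, which encodes a growth factor of the TGF-β family. In GENCODE 47.9% of the 100-base windows of the *Cers1* transcript lay in *Gdf1* exons. The 30 bases that open the *Gdf1* coding sequence, with the start codon in capitals, are thus part of a *Cers1* transcript too.

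*Gdf1*, chr8:70329982-70330011, plus strand: ATGctccctgtctgccatcgtttttgcgac

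The authors' tables give *Cers1* and *Gdf1* the same exon length, 2724 bases, and *Gdf1* also had 0 reads throughout. Among all overlapping genes there, 2 pairs share both a start and an exon length, *Cers1* with *Gdf1* and *C1qtnf5* with *Mfrp*, and all 4 genes had 0 reads in every library, whereas 17.6% of all genes did. The absence of *Cers1* transcripts and the loss of reads that fit both genes cannot be told apart from these counts. *Cers1* was therefore neither tested nor compared.

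The libraries held between 19958838 and 75795034 counted reads, and LP 3 and ML 3, both from batch 3, were the shallowest. The labels give 3 batches, of which batch 1 was prepared with an earlier version of the library kit. MaSC/basal 1, LP 1, ML 1 and mammosphere cells formed batch 1, MaSC/basal 2 and 3, LP 2 and ML 2 batch 2, and LP 3, ML 3 and Comma Dβ batch 3. Summed over *Krt5*, *Krt14*, *Trp63* and *Acta2*, basal markers lay at 12427 to 16392 CPM in MaSC/basal cells and at 46.3 to 312 CPM in LP and ML cells, and the highest of the latter was ML 3. ML 3 also had 147 CPM of epidermal markers, mainly *Krt10* and *Krt1*, whereas the other sorted libraries had 3.00 to 9.62 CPM. The name submitted for MaSC/basal 1 has p53 in it, while the genotype label reads wild type. Leaving this library out gave the same number of called ceramide synthase genes in each comparison, 3, 2 and 3. In bulk libraries, fewer cells of a type and less RNA per cell cannot be told apart.

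Levels of different genes were compared as CPM per kb of exon length. On this scale the members fell in the order *Cers2*, *Cers5*, *Cers6*, *Cers4* and *Cers3* in MaSC/basal, LP and ML cells alike. In MaSC/basal cells the levels were 40.4 ± 3.31, 26.3 ± 4.91, 8.99 ± 0.337, 2.13 ± 0.506 and 0.357 ± 0.121 CPM per kb (mean ± SD, n = 3), and no neighbours in this order overlapped. In LP cells they were 85.4 ± 4.78, 25.2 ± 2.49, 1.74 ± 0.699, 0.428 ± 0.250 and 0.242 ± 0.0932. In ML cells they were 95.2 ± 5.06, 38.8 ± 2.74, 6.998 ± 0.688, 1.19 ± 1.03 and 0.567 ± 0.168. *Cers4* and *Cers3* overlapped among the libraries of LP and of ML cells, so their order there is not set beyond the spread. The 2 cultured libraries kept *Cers2* and *Cers5* at the top, but *Cers3* ranked above *Cers6* and *Cers4* in mammosphere cells, at 4.23 CPM per kb, and above *Cers4* in Comma Dβ, at 0.461 against 0.111 CPM per kb.

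The sum over the family was 78.2 ± 8.34 CPM per kb in MaSC/basal cells, 113 ± 7.20 in LP and 143 ± 3.09 in ML cells, without overlap, and stood at 112 in mammosphere cells and 179 in Comma Dβ. *Cers2* made up 51.8% ± 2.88 of this sum in MaSC/basal cells, 75.6% ± 1.80 in LP and 66.7% ± 2.90 in ML cells. The share of *Cers6* was 11.6% ± 0.806, 1.52% ± 0.542 and 4.91% ± 0.583 in the same order, and that of *Cers5* 33.5% ± 3.15, 22.3% ± 1.40 and 27.2% ± 1.93. The family of MaSC/basal cells was thus the least dominated by *Cers2*. Per kb, *Cers2* exceeded *Cers6* by 4.27 to 4.67 times in MaSC/basal libraries, 12.1 to 16.1 times in ML libraries and 39.5 to 86.2 times in LP libraries, with ranges that did not overlap. The ratio was 37.0 in mammosphere cells, just below the LP range, and 12.7 in Comma Dβ, within the ML range. These sums and ratios are descriptions of the levels and were not tested.

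**Figure D1:**
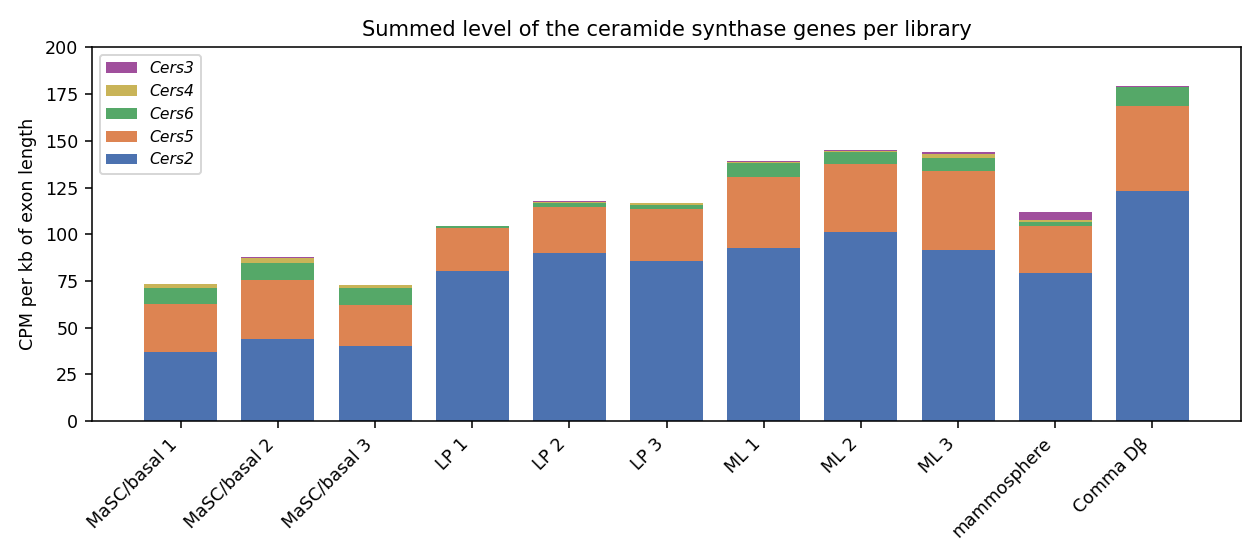
Level of each ceramide synthase gene in CPM per kb of exon length (y axis), stacked for each of the 11 libraries (x axis). *Cers2* (blue) and *Cers5* (orange) made up most of every bar, the *Cers6* segment was widest in MaSC/basal libraries and Comma Dβ, and the summed level was lowest in the 3 MaSC/basal libraries.

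Populations were compared on the CPM of single genes, scaled by TMM factors, with the edgeR quasi-likelihood test and Benjamini-Hochberg adjustment over the 15422 genes tested. In MaSC/basal against LP cells, 3 of the 5 tested ceramide synthase genes differed at FDR under 0.05, with *Cers4* and *Cers6* higher and *Cers2* lower in MaSC/basal cells. Over all genes tested 57.4% differed, 29.4% being higher and 28.0% lower in MaSC/basal cells. Between MaSC/basal and ML cells 2 of 5 differed, *Cers2* and *Cers5*, both lower in MaSC/basal cells, against 58.7% of all genes, 28.9% higher and 29.7% lower. Between LP and ML cells 3 of 5 differed, *Cers3*, *Cers5* and *Cers6*, all lower in LP cells, against 31.8% of all genes, 14.3% higher and 17.5% lower (2204 and 2695 genes, or 1581 and 3798 without TMM factors). The median log2 fold change of the 5 genes was 0.51, -0.56 and -1.16 in the 3 comparisons, beside medians of -0.01 over all genes tested in each. The shares of members called, 60%, 40% and 60%, are each of 5 genes, and the first is close to that of all genes. The LP against ML count was 1, *Cers6*, without LP 1 and 2 without MaSC/basal 2 or ML 3.

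Markers of other cell types differed between the same populations. The 4 endothelial markers *Pecam1*, *Cdh5*, *Kdr* and *Emcn* summed to 37.7 to 80.0 CPM in MaSC/basal libraries, against 6.84 to 19.5 CPM for LP and 4.75 to 32.8 CPM for ML. All 4 were higher in MaSC/basal than in LP cells (log2 fold changes 1.72 to 2.52, adjusted p = 0.0180 to 0.0329, edgeR), and *Kdr* was higher than in ML cells as well (1.91, adjusted p = 0.0219). Of the 4 fibroblast markers, *Pdgfrb*, which pericytes express too, was higher in MaSC/basal than in LP (2.08) and ML cells (2.71) and *Pdgfra* was lower than in LP cells (-1.43), while the sums of the list overlapped. The 4 adipocyte markers summed to 1.75 to 4.70 CPM in MaSC/basal libraries and to at most 0.468 CPM in luminal libraries. *Lep* was the only one that passed the filter, and only the MaSC/basal libraries (1.22 to 4.27 CPM) carried it through. It had 0 to 3 reads in LP and 0 to 2 reads in ML libraries. The log2 fold changes of *Lep* for MaSC/basal against LP and ML cells, 5.47 and 7.07, are therefore not independent of the filter. Epidermal markers were above the LP range in MaSC/basal libraries (7.31 to 9.62 against 3.00 to 5.66 CPM), and the 5 Schwann cell and neuron markers summed to values below it (138 to 159 against 181 to 363 CPM), although 2 of the 4 tested were higher in MaSC/basal cells. The 5 immune markers summed to 5.36 to 6.63 CPM in MaSC/basal libraries, against 1.09 to 6.04 CPM for LP and 0.735 to 5.06 CPM for ML. The part of these markers in the differences of *Cers2*, *Cers4*, *Cers5* and *Cers6* was not tested.

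**Figure D2:**
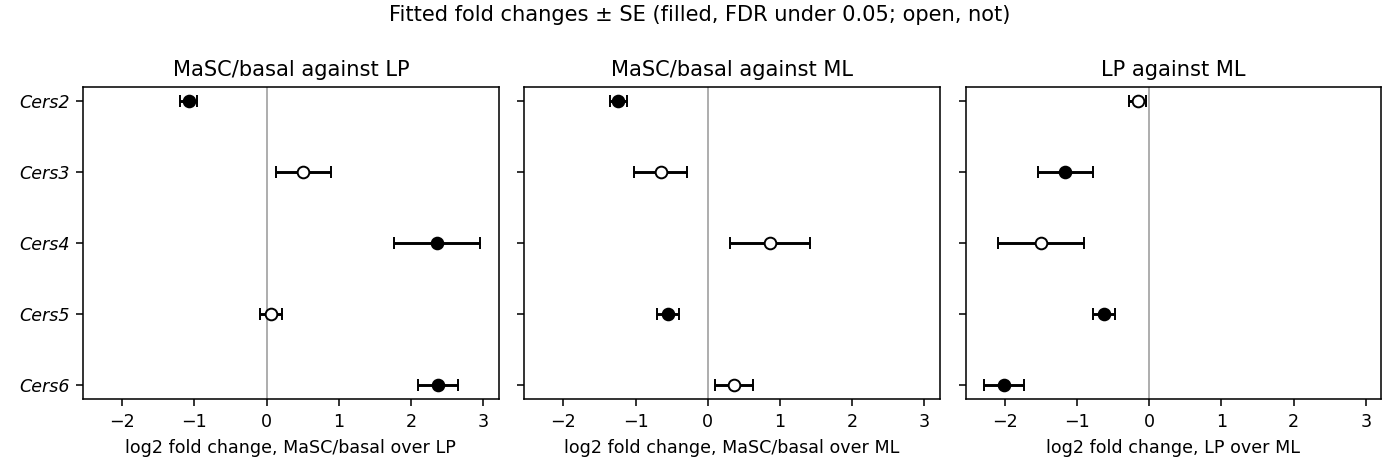
Fitted log2 fold change of each tested ceramide synthase gene (x axis, with SE) in the 3 comparisons of sorted populations. *Cers2* lay to the left in both comparisons with MaSC/basal cells, *Cers6* lay near 2.37 against LP and near 0.36 against ML cells, and no gene lay to the right in LP against ML cells.

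*Cers2*, the synthase for very-long chains and the most highly expressed member, was lower in MaSC/basal cells than in either luminal population. It was at 74.9, 88.3 and 81.3 CPM in MaSC/basal libraries 1 to 3, at 162, 182 and 173 CPM in LP libraries and at 187, 204 and 185 CPM in ML libraries. All 6 luminal libraries lay above all MaSC/basal libraries, and every ML library above every LP library, by a small margin. Expression was 2.12-fold higher in LP than in MaSC/basal cells (log2 fold change -1.08, SE 0.119, adjusted p = 3.37e-05, edgeR) and 2.36-fold higher in ML cells (log2 -1.24, SE 0.119, adjusted p = 1.21e-05). The difference between LP and ML cells did not pass the test (log2 -0.16, SE 0.118, adjusted p = 0.338). Within batches the difference from LP cells was -1.12 and -1.10 and that from ML cells -1.32 and -1.27 on the log2 scale (batches 1 and 2), and batch 3 had no MaSC/basal library. *Cers2* rested on 3245 reads or more in every library, so counting error was small beside the spread between libraries.

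*Cers3*, the synthase best known from epidermis, was near the detection filter in the sorted cells. Its CPM were 1.51, 1.24 and 0.735 in MaSC/basal libraries, 0.705, 1.12 and 0.534 in LP libraries and 1.33, 1.78 and 2.42 in ML libraries, from 10 reads (LP 3) to 134 reads (ML 2). The ML libraries lay above the LP libraries, the highest was ML 3, and MaSC/basal libraries overlapped both. *Cers3* was 2.23-fold higher in ML than in LP cells (log2 fold change -1.16, SE 0.383, adjusted p = 0.0432, edgeR). This call was not held with batch as a replicate block (log2 -1.12, adjusted p = 0.0649), by limma voom (-1.10, adjusted p = 0.0616) or without ML 3 (-0.94, adjusted p = 0.121). Within batches 1, 2 and 3 the log2 difference was -0.87, -0.64 and -2.08, the last from the pair with ML 3, the library with 147 CPM of epidermal markers. The 5 skeletal muscle markers moved with *Cers3* too, at 6.31 to 9.34 CPM in ML against 1.27 to 4.44 CPM in LP libraries, and *Mylpf* (log2 -1.72, adjusted p = 0.00191), *Myh4* (-3.72, adjusted p = 0.00214) and *Tnnt3* (-2.35, adjusted p = 0.0251) of the 4 tested were lower in LP cells. In LP libraries *Myh4* had 1 to 5 reads and *Tnnt3* 3 to 9 reads, so these fold changes rest on values near the floor. *Tnnt3* was above 0.5 CPM only in ML 2, ML 3 and mammosphere cells, and so passed the filter through libraries where it was high. The part of the epidermal and muscle markers in the *Cers3* level was not tested. MaSC/basal cells differed from neither LP (log2 0.51, SE 0.381, adjusted p = 0.280) nor ML cells (log2 -0.65, SE 0.365, adjusted p = 0.151) past the threshold.

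*Cers4*, a candidate of the screen, encodes a synthase for stearoyl and similar chains and is well expressed in skin. It was at 6.97, 9.93 and 6.501 CPM in MaSC/basal libraries, 0.917, 1.18 and 2.62 CPM in LP libraries and 2.07, 2.33 and 8.75 CPM in ML libraries. MaSC/basal libraries were all above LP libraries, whereas ML 3 alone reached the MaSC/basal range. Expression was 5.12-fold higher in MaSC/basal than in LP cells (log2 fold change 2.36, SE 0.596, adjusted p = 0.00676, edgeR), and the log2 difference within batches 1 and 2 was 2.86 and 2.72. Against ML cells the log2 fold change was 0.86 (SE 0.556, adjusted p = 0.208), which did not pass the test. It passed with batch as a replicate block (log2 1.68, adjusted p = 0.000849), by limma voom (1.31, adjusted p = 0.0218) and without ML 3 (1.82, adjusted p = 0.00541), and within batches 1 and 2 the difference was 1.73 and 1.77. The log2 fold change for LP against ML cells, -1.49 (SE 0.593, adjusted p = 0.0806), passed with the replicate block (-1.30, adjusted p = 0.00657), with within-batch differences of -1.13, -0.95 and -1.72. The same comparison without ML 3 gave -0.54 (adjusted p = 0.383).

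LP 3 and ML 3, both of batch 3, were the highest for *Cers4* in their populations, and Comma Dβ, the third library of that batch, was the lowest of all 11. In ML 3 the basal markers *Krt5*, *Krt14* and *Trp63* were at 141, 110 and 24.8 CPM, against 13.2 to 14.6, 23.1 to 27.3 and 1.89 to 2.18 CPM in ML 1 and ML 2, whereas *Acta2* was at 36.2 CPM against 12.4 and 27.8 CPM. *Krt10* and *Krt1* were at 92.3 and 52.5 CPM in ML 3, against 6.58 or less and 1.73 or less in the other 10 libraries. Batch and markers moved together with *Cers4* in this library, and their part in its value was not tested.

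*Cers5*, the more highly expressed of the synthases for palmitoyl chains, was higher in ML cells than in the other populations. Its CPM were 51.2, 63.6 and 44.0 in MaSC/basal libraries, 45.9, 49.9 and 55.9 in LP libraries and 76.1, 73.6 and 84.1 in ML libraries. The ML libraries lay above all others of the sorted cells, and MaSC/basal and LP libraries overlapped. Expression in ML cells was 1.47-fold that in MaSC/basal cells (log2 fold change -0.56, SE 0.152, adjusted p = 0.00947, edgeR) and 1.54-fold that in LP cells (log2 -0.62, SE 0.152, adjusted p = 0.0128). The second call did not hold without LP 1 (log2 -0.54, adjusted p = 0.0573). Within batches 1, 2 and 3 the log2 difference of LP from ML cells was -0.73, -0.56 and -0.59. For MaSC/basal against LP cells the log2 fold change was 0.07 (SE 0.151, adjusted p = 0.733).

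*Cers6*, the other synthase for palmitoyl chains and also a candidate of the screen, was low in LP cells and several-fold higher in both MaSC/basal and ML cells. It was at 34.2, 36.8 and 35.1 CPM in MaSC/basal libraries, 3.67, 8.29 and 8.55 CPM in LP libraries and 30.1, 24.7 and 27.8 CPM in ML libraries. The LP libraries lay apart from all other sorted libraries, LP 1 being the lowest with 104 reads, and the MaSC/basal libraries stood slightly above the ML libraries. Expression was 5.17-fold higher in MaSC/basal than in LP cells (log2 fold change 2.37, SE 0.274, adjusted p = 4.73e-05, edgeR) and 4.02-fold higher in ML than in LP cells (log2 -2.01, SE 0.272, adjusted p = 0.00110). Both calls held in every alternative tried, with log2 fold changes of 2.05 to 2.54 and of -2.17 to -1.68 when single libraries were left out. Within batches the difference from LP cells was 3.20 and 2.11 for MaSC/basal cells, and -3.02, -1.57 and -1.69 for LP against ML cells. The log2 fold change for MaSC/basal against ML cells, 0.36 (SE 0.257, adjusted p = 0.249), passed when LP 1 was left out of the shared fit (0.37, adjusted p = 0.0361).

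**Figure D3:**
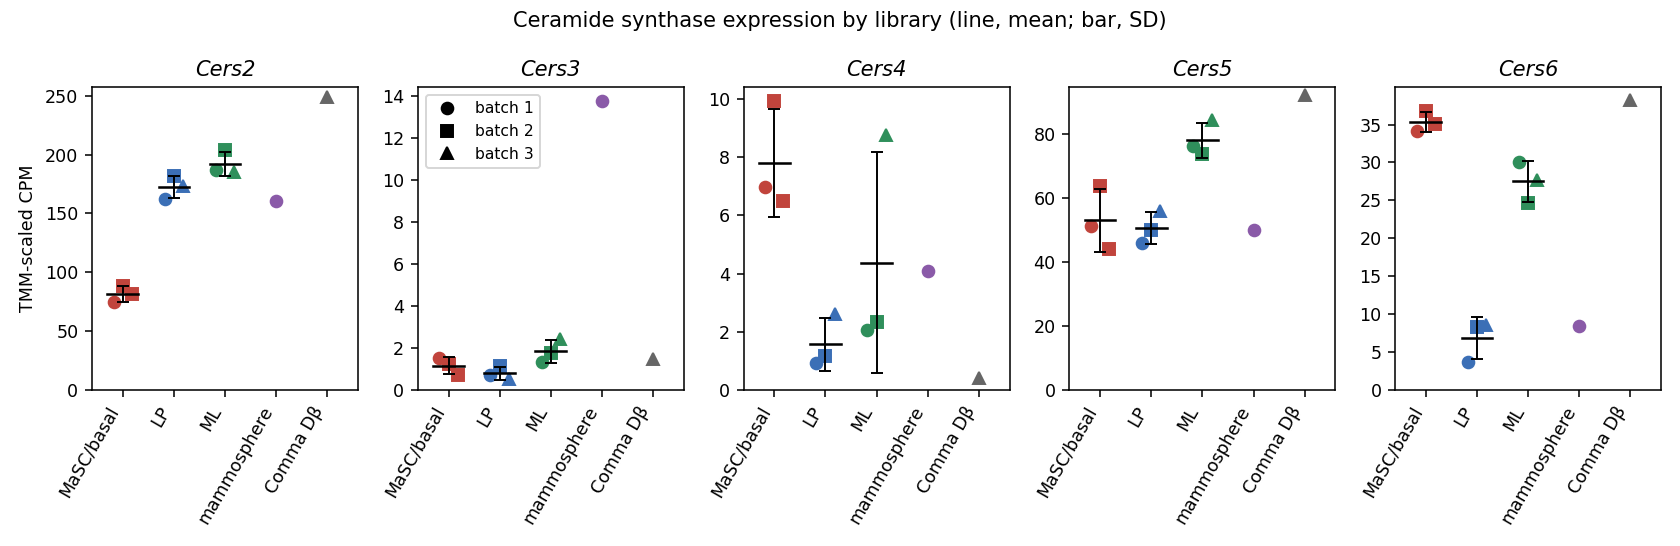
TMM-scaled CPM (y axis, a scale for each gene) of the 5 detected ceramide synthase genes in MaSC/basal, LP and ML libraries, mammosphere cells and Comma Dβ, with marker shapes for the 3 library batches, lines for the mean and bars for the SD of 3 libraries. *Cers6* was low in LP and mammosphere cells, *Cers4* of ML 3 (8.75 CPM, green triangle) stood apart from ML 1 and ML 2, and *Cers3* of mammosphere cells (13.8 CPM) stood above every other library.

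Mammosphere cells were compared with the MaSC/basal cells from which such cultures are grown, without a test since there was 1 library. Of the 5 detected genes, *Cers3* and *Cers6* were over 2-fold from the MaSC/basal mean, as were 39.7% of all genes tested. *Cers3* was at 13.8 CPM (610 reads), 11.9-fold above the MaSC/basal mean of 1.16 CPM and above all 9 sorted libraries, of which the highest was at 2.42 CPM. *Cers6* was at 8.46 CPM against 34.2 to 36.8 CPM in MaSC/basal libraries, 4.16-fold lower and inside the LP range. *Cers2* was at 161 CPM (log2 difference 0.98), above every MaSC/basal library, *Cers4* at 4.08 CPM (-0.90), below every MaSC/basal library, and *Cers5* at 49.8 CPM, within their range. Without TMM factors *Cers2* was over 2-fold too (log2 difference 1.20). Lineage markers differed in the same library. The 4 basal markers summed to 3273 CPM in mammosphere cells against 12427 to 16392 CPM in MaSC/basal libraries. The 4 luminal markers *Krt8*, *Krt18*, *Cdh1* and *Epcam* summed to 2833 against 1318 to 1606 CPM. Of these, *Cdh1* (465 CPM) was within the MaSC/basal range and *Epcam* (714 against at most 693 CPM) was above it by little. The 4 LP markers *Itgb3*, *Kit*, *Elf5* and *Aldh1a3* summed to 423 against 89.5 to 96.5 CPM. Of the 4 ML markers, *Prlr* and *Foxa1* were above every MaSC/basal library and *Esr1* and *Pgr* were below. *Elf5*, a transcription factor of luminal progenitors, was at 150 CPM against a MaSC/basal mean of 5.25 and an LP mean of 394 CPM. The mammosphere library also had 24.6 CPM of the 5 epidermal markers, against 7.31 to 9.62 CPM in MaSC/basal libraries and 147 CPM in ML 3. *Flg*, at 6.47 CPM, and *Ivl*, at 9.18 CPM, were above every MaSC/basal library. *Krt10* was above them by little (6.58 against at most 6.26 CPM), and *Krt1* and *Lor* were within their range. The 5 skeletal muscle markers summed to 75.6 CPM, against at most 9.34 CPM in sorted libraries. Its immune markers summed to 11.7 CPM, of which *Lyz2* made 11.1 CPM, against at most 6.63 CPM in sorted libraries. *Ptprc*, *Cd3e* and *Cd79a* were below their MaSC/basal means, and *Cd52* was within the MaSC/basal range. The fibroblast markers summed to 1147 CPM, against at most 495 CPM in sorted libraries. *Col1a1*, *Pdgfrb* and *Pdgfra* were at 838, 151 and 59.3 CPM, whereas *Dcn*, at 98.6 CPM, was below the MaSC/basal libraries (162 to 204 CPM). The part of these markers in the values of *Cers3* and *Cers6* was not tested, and the submitted name of the library may combine more than 1 culture.

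Comma Dβ differed from MaSC/basal cells in other members. *Cers2* and *Cers4* were over 2-fold from the MaSC/basal mean, as were 41.7% of all genes tested. *Cers4* was at 0.408 CPM (12 reads), 16.9-fold below the MaSC/basal mean on the log2 CPM scale and below all sorted libraries. *Cers2* was at 249 CPM, 3.06-fold above the MaSC/basal mean and above every sorted library. *Cers5* at 92.0 CPM (log2 difference 0.81) and *Cers6* at 38.2 CPM (0.11) were also above every sorted library, the latter by little, and *Cers3* at 1.498 CPM lay within the MaSC/basal range. Without TMM factors *Cers5* was over 2-fold too (log2 difference 1.10). The basal markers of Comma Dβ summed to 1494 CPM against 12427 to 16392 CPM in MaSC/basal libraries, its luminal markers to 206 against 1318 to 1606 CPM and its LP markers to 46.8 against 89.5 to 96.5 CPM. Its fibroblast markers reached 1366 CPM, against at most 495 CPM in sorted libraries, with *Pdgfrb* at 341, *Col1a1* at 809 and *Pdgfra* at 125 CPM. *Dcn*, the remaining gene of that list, was at 91.5 CPM, below the MaSC/basal libraries (162 to 204 CPM). Immune, endothelial and adipocyte markers each summed to 0.545 CPM or less, with *Cd52*, *Cd3e*, *Adipoq* and *Lep* at 0 reads. The part of these markers in its *Cers2* and *Cers4* levels was not tested. Strain, stage, culture and batch all differ between Comma Dβ and the MaSC/basal libraries and cannot be told apart. Both cultured libraries were set against the same 3 MaSC/basal libraries, so their differences share that mean.

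**Figure D4:**
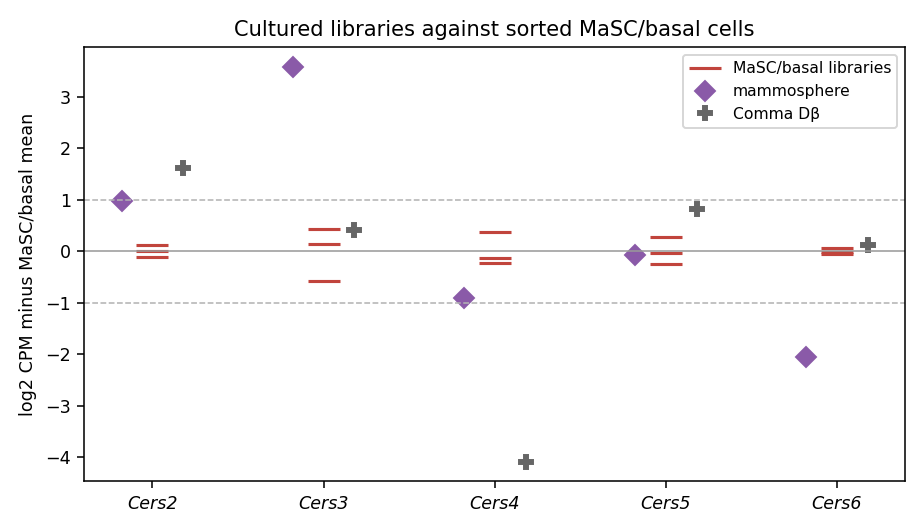
Log2 CPM of the mammosphere library (purple diamonds) and Comma Dβ (grey crosses) minus the MaSC/basal mean (y axis) for the 5 detected ceramide synthase genes, with the 3 MaSC/basal libraries as red dashes and broken lines at 2-fold. Mammosphere cells stood apart for *Cers3* (3.57) and *Cers6* (-2.06) and Comma Dβ for *Cers4* (-4.08) and *Cers2* (1.61).

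The enzymes around the ceramide synthases were followed in 7 lists with 53 genes, of which 50 passed the filter on low counts. Between MaSC/basal and LP cells 30 of the 50 differed, 11 higher and 19 lower in MaSC/basal cells. Between MaSC/basal and ML cells 37 differed, 14 higher and 23 lower, and between LP and ML cells 20 differed, 9 higher and 11 lower in LP cells. These are 60%, 74% and 40% of the pathway genes tested, beside 57.4%, 58.7% and 31.8% of all genes tested, so the first share is near that of all genes. The median log2 fold changes were -0.23, -0.26 and 0.03, beside -0.01 over all genes tested in each comparison. The 7 lists hold 3 to 13 tested genes each, and their counts are to be read beside the same shares of all genes. The last count was 9 without ML 1, 11 without LP 2, 12 without LP 1 and 13 without ML 3. Of the LP against ML calls named below, those of *Asah1*, *Asah2*, *Hacd1*, *Hacd2*, *Degs2* and *Ormdl1* were lost when 1 of several libraries was left out, with adjusted p up to 0.140, 0.115, 0.125, 0.0505, 0.0550 and 0.0913.

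Serine palmitoyltransferase makes the first sphingoid intermediate, and 7 genes of this enzyme and its regulators were tested. In MaSC/basal cells 4 were lower and 1 was higher against each luminal population, and 3 were lower in LP than in ML cells, which makes 71.4%, 71.4% and 42.9% called beside 57.4%, 58.7% and 31.8% of all genes. *Sptlc3*, an alternative catalytic subunit, was at 0.598 ± 0.0934 CPM in MaSC/basal, 9.88 ± 2.71 in LP and 37.5 ± 4.79 CPM in ML cells (n = 3), with log2 fold changes of -4.04 (MaSC/basal against LP, SE 0.254, adjusted p = 9.96e-07), -5.96 (against ML, SE 0.271, adjusted p = 1.75e-07) and -1.93 (LP against ML, SE 0.220, adjusted p = 0.000800). In MaSC/basal libraries *Sptlc3* had 26 to 38 reads, at 0.490 to 0.658 CPM, near the filter. The inhibitory subunit *Ormdl2* was also lower in MaSC/basal than in LP cells (-1.95) and ML cells (-2.53). *Ormdl1* was lower in LP than in ML cells (-1.02). Of the 3 genes of the ketosphinganine reductase and the desaturases that turn dihydroceramide into ceramide or phytoceramide, *Degs1* was higher in MaSC/basal than in LP (1.38) and ML cells (1.06) and *Degs2* was higher in MaSC/basal than in ML cells (1.88) and in LP than in ML cells (1.37). Of these 3 genes *Kdsr* alone passed in no comparison, and 33.3%, 66.7% and 33.3% were called, beside the same shares of all genes.

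Fatty acid elongation supplies the acyl-CoA of the longer chains. Of 13 genes tested, 4 were higher and 5 lower in MaSC/basal cells against LP, and again 4 higher and 5 lower against ML cells, and 3 were higher and 2 lower in LP than in ML cells. The shares called were 69.2%, 69.2% and 38.5%, beside 57.4%, 58.7% and 31.8% of all genes. *Elovl4*, the elongase for ultra-long chains, averaged 63.4 ± 16.1 CPM in MaSC/basal libraries but 1.23 ± 0.635 in LP and 1.39 ± 1.40 in ML libraries (log2 5.73 and 5.71, adjusted p = 3.48e-05 and 3.04e-05), and at 299 CPM in mammosphere cells. The dehydratase *Hacd1* was likewise higher in MaSC/basal cells (log2 3.06 and 4.23), and *Hacd1* and *Hacd2* were higher in LP than in ML cells (1.18 and 1.17). *Elovl4* and *Cers3*, whose products act on ultra-long chains, were thus both highest in mammosphere cells, but among sorted cells *Elovl4* was highest in MaSC/basal cells, where *Cers3* was not.

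Several enzymes that use ceramide also differed. Of 10 genes for sphingomyelin synthesis, ceramide transfer and sphingomyelinases, 6 were lower in MaSC/basal than in LP cells, and 7 were lower and 1 was higher than in ML cells, with 2 in each direction in LP against ML cells (60%, 80% and 40% called, beside 57.4%, 58.7% and 31.8% of all genes). By edgeR, limma voom and DESeq2 alike, 0 were higher in MaSC/basal than in LP cells at FDR under 0.05 and 1 was at an unadjusted p under 0.05 by each. The sphingomyelin synthase *Sgms1* was lower in MaSC/basal than in ML cells (log2 -3.52) and in LP than in ML cells (-1.90), and *Sgms2* was lower in MaSC/basal than in LP (-1.75) and ML cells (-2.47). *Smpdl3a*, a relative of acid sphingomyelinase, was higher in LP than in MaSC/basal cells (-2.62) and ML cells (1.78). Of 8 genes for glycosphingolipid entry, glucocerebrosidases and ceramide kinase, 2 were higher and 3 lower in MaSC/basal than in LP cells, and 3 higher and 4 lower than in ML cells, with 3 higher and 1 lower in LP against ML cells (62.5%, 87.5% and 50% called, beside the same shares of all genes). *Ugt8a*, the galactosyltransferase for ceramide, was at 0.278 ± 0.0185 CPM in MaSC/basal, 32.2 ± 5.88 in LP and 6.93 ± 2.71 CPM in ML cells. Its log2 fold changes in the 3 comparisons were -6.84, -4.64 and 2.20. In MaSC/basal libraries it had 14 to 16 reads, below the filter, and it passed through libraries where it was high. Its fold changes for MaSC/basal cells are therefore not independent of the filter. The lactosylceramide synthase *B4galt6* was higher in MaSC/basal than in LP (2.59) and ML cells (4.08), and the ceramide kinase *Cerk* was lower in LP than in ML cells (-1.95).

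Of the 4 ceramidase genes tested, 0 differed between MaSC/basal and LP cells in the edgeR and limma voom tests at FDR under 0.05, 1 did in the DESeq2 test, and 1 was under 0.05 unadjusted by each tool. *Asah1* and *Asah2* were lower in MaSC/basal than in ML cells (log2 -0.58 and -0.73) and in LP than in ML cells (-0.33 and -0.54). DESeq2 also called 1 ceramidase gene higher in LP than in ML cells. By edgeR the shares called were 0%, 50% and 50% of 4 genes, beside 57.4%, 58.7% and 31.8% of all genes. Among 5 genes for sphingosine and its phosphate, 3 were higher and 1 lower in MaSC/basal cells against each luminal population, and 1, *Sphk1*, was lower in LP than in ML cells (80%, 80% and 20% called, beside 57.4%, 58.7% and 31.8% of all genes). The sphingosine kinase *Sphk1* had means of 518 ± 55.1, 147 ± 41.2 and 291 ± 26.1 CPM in the MaSC/basal, LP and ML populations (log2 1.81 for MaSC/basal against LP, -0.98 for LP against ML), the phosphatase *Sgpp1* was above LP (0.78) and ML cells (0.91) in MaSC/basal cells, and the lyase *Sgpl1* was higher than in ML cells (1.00). Among sorted cells the mean of *Sphk1* was highest in MaSC/basal and lowest in LP cells, an order also seen for *Cers6*. For *Cers6* the difference between MaSC/basal and ML cells was not called. In mammosphere cells both genes were below the MaSC/basal mean. In Comma Dβ *Sphk1* was low as well, at 52.1 CPM, whereas *Cers6*, at 38.2 CPM, was above every sorted library.

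**Figure D5:**
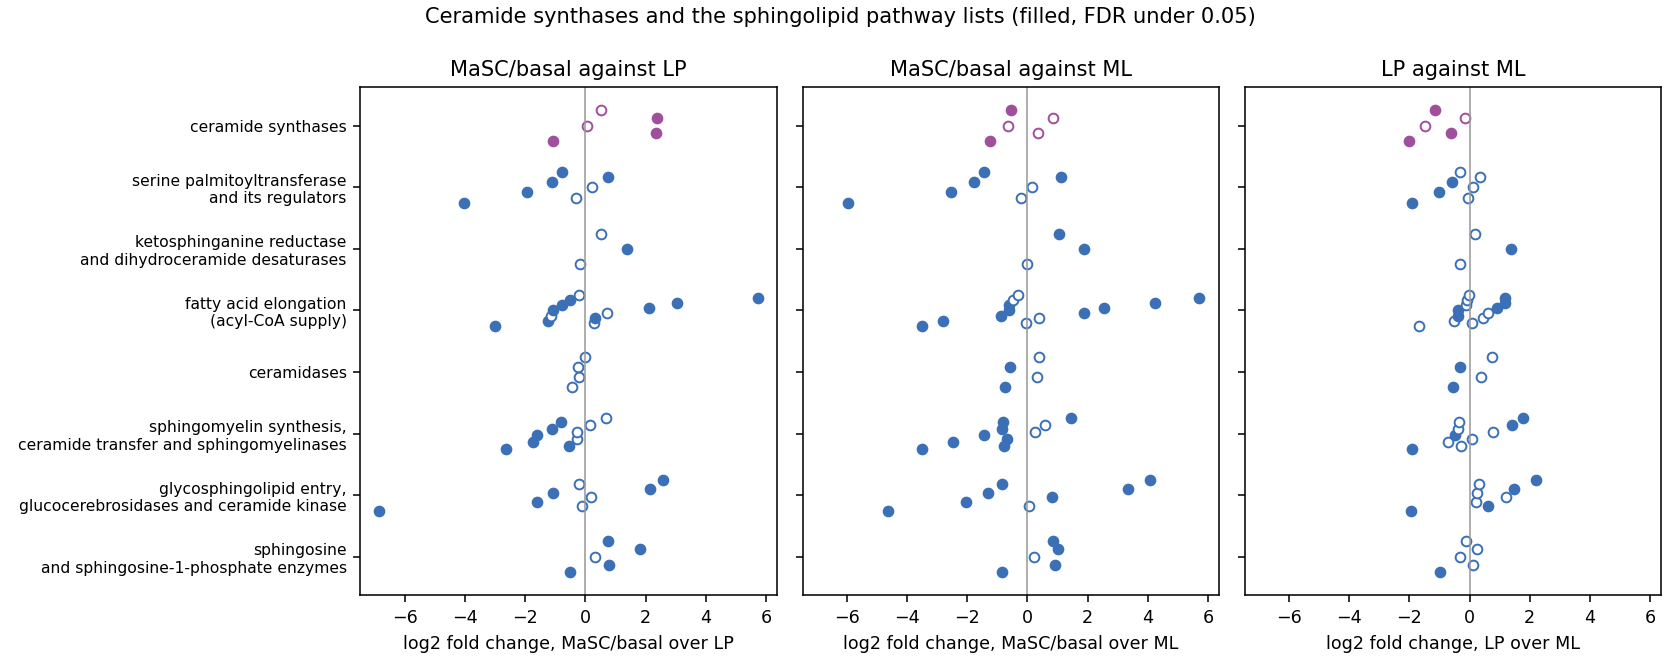
Log2 fold changes (x axis) of the 5 tested ceramide synthase genes (top, purple) and of the 50 tested genes of 7 sphingolipid lists (blue) in the 3 comparisons, 1 point per gene. Points of serine palmitoyltransferase genes and of sphingomyelin genes lay mostly to the left against MaSC/basal cells. The widest spread was that of glycosphingolipid and elongation genes, from -6.84 (*Ugt8a*) to 5.73 (*Elovl4*). *Ugt8a* had 14 to 16 reads in MaSC/basal libraries, below the filter on low counts.

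The genes with the pattern most like that of each member were listed by Pearson's r of log2 CPM over the 11 libraries, which fall into 5 sample types, and r is given as a description only. For *Cers2* these were *Gm5637* (r = 0.982) and *Arpc1b* (0.982), for *Cers3* *Tnnc2* (0.985) and *Mylpf* (0.947), for *Cers4* *Morf4l1-ps1* (0.959) and *Dnajc7* (0.949), for *Cers5* *Daglb* (0.968) and *Aurkaip1* (0.965), and for *Cers6* *Eps8* (0.982) and *Ly75* (0.964). The genes listed for *Cers3*, which encode a troponin and a myosin light chain of fast skeletal muscle, had like *Cers3* their highest value in the mammosphere library, at 5.84 and 25.2 CPM. *Eps8*, an actin-capping adaptor, was at 155, 27.9 and 123 CPM on average in MaSC/basal, LP and ML libraries and at 50.2 CPM in mammosphere cells. Between members, r ranged from -0.70 for *Cers2* with *Cers4* to 0.57 for *Cers2* with *Cers5*, and was 0.38 for the screen candidates *Cers4* and *Cers6*.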

How the data were processed

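Libraries were grouped by their labels. The authors aligned 100-base single-end reads to mm10 (GRCm38) with Rsubread and deposited raw counts of reads assigned to Entrez genes by featureCounts for each library, with the exon length of each gene. The handling of reads that fit several genes and the strand setting are not given in the sources used here. The submitters' processing notes also name CASAVA 1.8.0, edgeR 3.6.2 and limma 3.20.5. Symbols were matched through RefSeq for 25275 of 27179 genes. The members and lists were chosen with earlier results of these data known.

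Tests were run with edgeR 4.0.16 (R 4.3.3) in place of the limma models of the study. Genes above 0.5 CPM in 3 libraries or more (15422) were retained and TMM-scaled, and all 11 libraries entered 1 quasi-likelihood fit with the 5 sample types as group means. Genes were called at FDR under 0.05 (Benjamini-Hochberg), and SE is the log2 fold change divided by the square root of the F statistic. Log2 CPM used a prior count of 2. CPM per kb used the exon length of the authors' tables, not the length of the expressed transcript. Within-batch differences are of mean log2 CPM. Alternatives were DESeq2 size factors, no TMM factors, the DESeq2 Wald test (version 1.42.0), voom of limma 3.58.1, other filters, the 9 sorted libraries alone, a prior count of 0.5, shares by TPM, batch as a replicate block, and leaving out each sorted library.

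All 6 ceramide synthase genes were named, with the 2 genes of each sphingolipid list that had the largest absolute log2 fold change past FDR 0.05 in each comparison, the 2 genes most correlated with each tested member, genes that overlap a member, and marker genes. *C1qtnf5*, *Mfrp*, *Kdsr* and *Elovl4* in mammosphere cells were added after their values had been seen.

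Batch numbers come from the labels and pair the libraries for the block. Deviations of LP and ML libraries of the same batch from their group means correlated at 0.320, 0.313 and 0.526, and those of MaSC/basal libraries with same-batch luminal libraries at -0.118 to 0.289. No pair of replicates agreed within sampling noise. Coding sequences were aligned with Biopython, and sequences come from GENCODE M21 and GRCm38. The tests were also run on simulated counts with few changed genes and no batch effect, unlike these data. No support is drawn from that run. The labels do not say whether libraries of a group came from separate mice, the study calls them independent samples, and p-values measure the spread between these libraries. Floors cover counting error only, since reads carry no molecular identifiers. The hairpin sequencing of the screen and earlier array profiles were not used here.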

Additional observations from a re-analysis of the deposited data

How the results depend on the processing

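Of 255 fold changes of ceramide synthase genes recomputed under the alternatives, 237 kept their direction and their side of the threshold. When single libraries were left out, *Cers5* in MaSC/basal against LP cells had log2 fold changes of -0.08 to 0.19 and was below 0 without MaSC/basal 2 (-0.083) or LP 1 (-0.02), where it was not called either. The ranges were 0.53 to 1.82 for *Cers4* and 0.29 to 0.43 for *Cers6* in MaSC/basal against ML cells. In LP against ML cells they were -1.51 to -0.94 for *Cers3*, with adjusted p from 0.0319 to 0.121, -2.003 to -0.54 for *Cers4*, with adjusted p from 0.0455 to 0.383, and -0.69 to -0.54 for *Cers5*. *Cers4* in LP against ML cells passed without LP 3 (-2.003) or ML 2 (-1.82), and *Cers3* did not pass without MaSC/basal 2, LP 1, LP 3, ML 2 or ML 3. Between 1 and 3 ceramide synthase genes were then called in LP against ML cells (1 without LP 1, *Cers6*), 9 to 22 sphingolipid genes (9 without ML 1, 11 without LP 2, 12 without LP 1 and 13 without ML 3, against 20) and 3083 to 5205 of all genes (3083 without ML 1, against 4899). With library batch as a replicate block, *Cers4* passed in MaSC/basal against ML (1.68) and LP against ML cells (-1.30), *Cers3* in LP against ML cells did not (-1.12), and no other call of a member changed. Limma voom called *Cers4* in MaSC/basal against ML cells (1.31) and not *Cers3* in LP against ML cells (-1.10), and the DESeq2 Wald test called *Cers4* in LP against ML cells (-1.47). Without TMM factors the differences from the MaSC/basal mean were 1.20 for *Cers2* and -1.84 for *Cers6* in mammosphere cells, and 1.90 for *Cers2*, 1.10 for *Cers5* and 0.40 for *Cers6* in Comma Dβ. The same setting moved the median of all genes to 0.14 in MaSC/basal against LP and -0.19 in LP against ML cells, where 1581 genes were then higher and 3798 lower in LP cells, against 2204 and 2695. The cause of these changes was not tested. Named sphingolipid genes lost 27 calls in 629 recomputations, all in LP against ML cells. The 10 to 53 reads of *Cers3* in LP 3 and ML 3 and the 12 reads of *Cers4* in Comma Dβ limit the precision of those values.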
